A study of Mus musculus with 15 samples.

Results

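Of 111393 regions of accessible chromatin in mouse CD4+ T cells, 263 had a called peak in all 4 activated wild-type libraries, in none of the 4 activated knockout libraries and in none of the 7 untreated libraries. These regions are called WT-only below. They were chosen by these calls in a merged set of the 15 per-library peak lists (peaks that share at least 1 bp), so the contrast that selected them is described and not tested. ATAC-seq, in which Tn5 transposase cuts open DNA and adds sequencing adapters, was run on CD4+ T cells of genotype IRF5+/+ (here WT) or IRF5-/- (here KO, in which Irf5 is knocked out). Cells were untreated (0 h; 4 WT and 3 KO libraries) or had been activated in vitro for 72 h (4 libraries of each genotype). The labels do not state the activating agent, the age of the mice, the deleted part of Irf5 or whether replicate libraries stem from different animals. Per the file headers, WT library 4 was made at both times from alignments numbered 5.

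CD4+ T helper cells respond to antigen by leaving quiescence, dividing and acquiring effector programmes, and their accessible chromatin is remodelled in that time, mostly at enhancers away from promoters. Irf5 encodes interferon regulatory factor 5, a transcription factor best known downstream of Toll-like receptors in myeloid and B cells. An ATAC-seq peak marks DNA that is open in part of the cells. A peak call is a threshold: a region without one is not shown to be closed, and in bulk libraries fewer cells with an open site and less opening per cell cannot be told apart. The nearest gene of a region is an annotation, and gene expression was not measured.

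Each library kept between 20.5 and 29.0 M fragments after duplicate removal. All 8 T cell marker genes (Cd3e, Cd3d, Cd3g, Cd4, Cd2, Cd28, Lck and Bcl11b) had a region within 1 kb of a gene boundary in each of the 8 activated libraries. The defining B cell genes Ms4a1 and Pax5, the myeloid genes Csf1r, Adgre1 and Lyz2, and Cd8a and Ncr1 had no called region there in any library. In all 4 WT and all 4 KO libraries at 72 h, regions were called at 5 and 3 of 12 B cell markers, 5 and 5 of 12 myeloid markers, and 5 and 3 of 10 CD8 and natural killer cell markers. No WT-only region had any of these marker genes as its nearest gene within 100 kb, and the part of other cells in the calls was not tested. Irf5 itself (chromosome 6) held no WT-only region.

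The WT-only regions were 0.236% of all merged regions. The mirror rule with the genotypes exchanged (a peak in all KO libraries at 72 h, in no WT library at 72 h and in none at 0 h) found 15 regions, or 0.0135%. Without the condition on 0 h, the 2 rules found 387 (0.347%) and 25 (0.0224%) regions. The excess of WT-only over mirror regions, 17.5 to 1, stood beside a difference in depth and in peak number. Activated WT libraries kept 26.02 ± 1.196 M fragments (SD, n = 4) and KO libraries 23.01 ± 1.442 M (SD, n = 4), a difference of −3.004 M (two-sided exact permutation p = 0.0571, adjusted p = 0.229 over 4 measures). They held 66068 ± 4618 and 59799 ± 2865 peaks (SD, n = 4 each; exact permutation p = 0.114, adjusted p = 0.229), and groups of this size allow no p below 0.0286. When each of the 8 activated libraries was cut to its strongest 55519 peaks, the number in the smallest, the rules found 128 WT-only and 68 mirror regions, a ratio of 1.88. Of the 263 regions, 102 (38.8%) were overlapped by those 128. With the strongest 29994 peaks of each of the 15 libraries the counts were 61 and 35, and those 61 overlapped 0 of the 263. The rule asks for calls in 4 libraries and none in 11, so leaving out a library loosens it: 454, 397, 422 and 699 regions were found without WT library 1, 2, 3 or 4 at 72 h, and 470, 375, 493 and 411 without KO library 1, 2, 3 or 4.

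**Figure D1:**
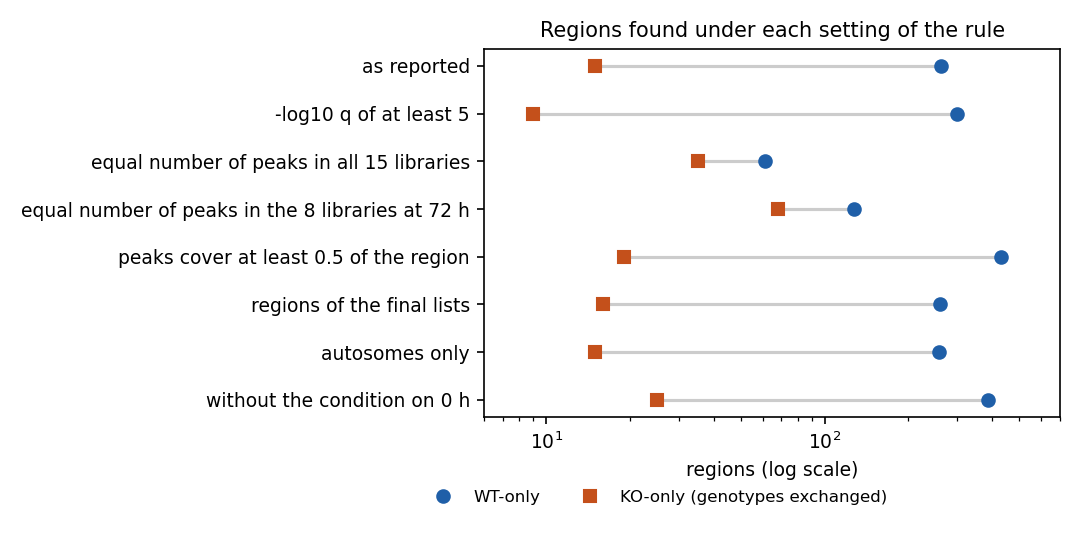
Number of regions (log scale) found by the rule (circles, WT-only) and by the same rule with the genotypes exchanged (squares, KO-only) as reported and under 7 other settings. The 2 counts lie far apart as reported (263 and 15) and close together when libraries hold equal numbers of peaks (128 and 68, or 61 and 35).

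The regions were 1 end of a gradient of calls. A peak in all WT libraries at 72 h and in no library at 0 h was found in 11545 regions (10.4% of all), and 7420 of these were also called in all 4 activated KO libraries. Another 2023 were called in 3 KO libraries, 1149 in 2, 690 in 1 and 263 in 0, so that 2.28% of the WT gains were missing from every KO library. Among the 8675 KO gains (7.79% of all regions), 880, 274, 86 and 15 were called in 3, 2, 1 and 0 WT libraries, and the 15 were 0.173% of them. The counts of WT gains were the higher at each step short of all 4.

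**Figure D2:**
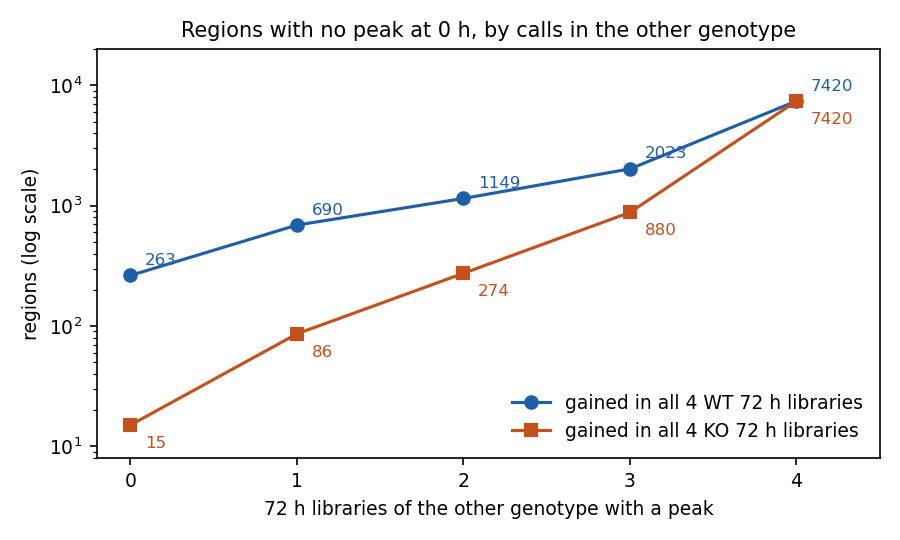
Regions with a peak in all 4 libraries of 1 genotype at 72 h and in none at 0 h (log scale), by how many 72 h libraries of the other genotype had a peak. Both counts end at the same 7420 shared regions, and the WT line (263 at 0 libraries) lies above the KO line (15 at 0 libraries) before that.

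Just outside the rule lay the 690 regions with a peak in a single KO library: 204 had it in KO library 1, 110 in library 2, 228 in library 3 and 148 in library 4. The −log10 q of that lone KO peak had a median of 4.83, and 53.2% were under 5 (−log10 q is the authors' significance score for a peak, and their lists begin at a value of 1.301). A further 909 regions met the rule except for a peak in 1 WT library, and 47.1% of them lacked it in WT library 4, which had the fewest peaks of its group (59243 against 67248 to 69086). Only 27 regions missed it through a single library at 0 h. Just inside, 193 of the 263 WT-only regions (73.4%) had a −log10 q under 5 in at least 1 WT library, and 70 (26.6%) reached 5 in all 4. The same shares were not computed over all WT gains, so these are not shown to be particular to the WT-only regions.

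In single WT libraries the WT-only peaks were of low height. Pileup is the number of fragments over the summit of a peak. Its median over the 263 regions was 15, 20, 18 and 15 in WT libraries 1 to 4, against 27, 31, 31 and 27 over all peaks of the same libraries. Lowest and highest values were 8 and 55, 9 and 104, 9 and 72, and 10 and 58. The lowest pileup called at all in those libraries was 8 or 9, so the lowest WT-only regions sat at the calling limit. The median −log10 q of the regions was 5.78, 8.45, 6.88 and 4.8, above 21.7%, 30.2%, 24.8% and 18.6% of the peaks in its library.

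The authors also called peaks on merged replicates, 102 M fragments for WT and 90.8 M for KO at 72 h. All 263 regions were overlapped by a peak of the merged WT list, and 180 (68.4%) by a peak of the merged KO list, although no single KO library had one. The other 83 had none. The merged KO list comes from the same KO libraries that the rule used, so the share is a description, and it moved with the settings (given below). Over all 111393 regions the share with a merged KO peak was 73.2%, and over all WT gains it was 99.1%. In the mirror, 10 of 15 regions (66.7%) had a merged WT peak. Among regions called in 1 KO library the share was 97.8%, and it was 99.9% for 2. Requiring the merged KO peak to cover at least 0.5 of the region lowered the share to 49.05%.

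The merged KO peaks were weaker than the WT peaks at the same place. In 173 regions the summit of both merged peaks lay inside the region, and the KO fold enrichment (pileup over the local background, a ratio given by the authors) was below that of WT in 169 of them (97.7%). The median KO to WT ratio of fold enrichment was 0.641. In regions gained in all 8 activated libraries the KO value was the lower in 58.9%, with a median ratio of 0.966. For pileup, which scales with depth, the median ratio was 0.508 at WT-only regions and 0.745 at regions gained by both. Median merged fold enrichment was 5.21 in WT over the 257 regions with a WT summit inside and 3.33 in KO over 177. The regions without a merged KO peak had a median WT fold of 4.92, against 5.39 for those with one. Of the 177 KO peaks with the summit inside, 143 had a −log10 q of 5 or more. The rule selected on the KO calls, so lower KO values were fixed by the choice.

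**Figure D3:**
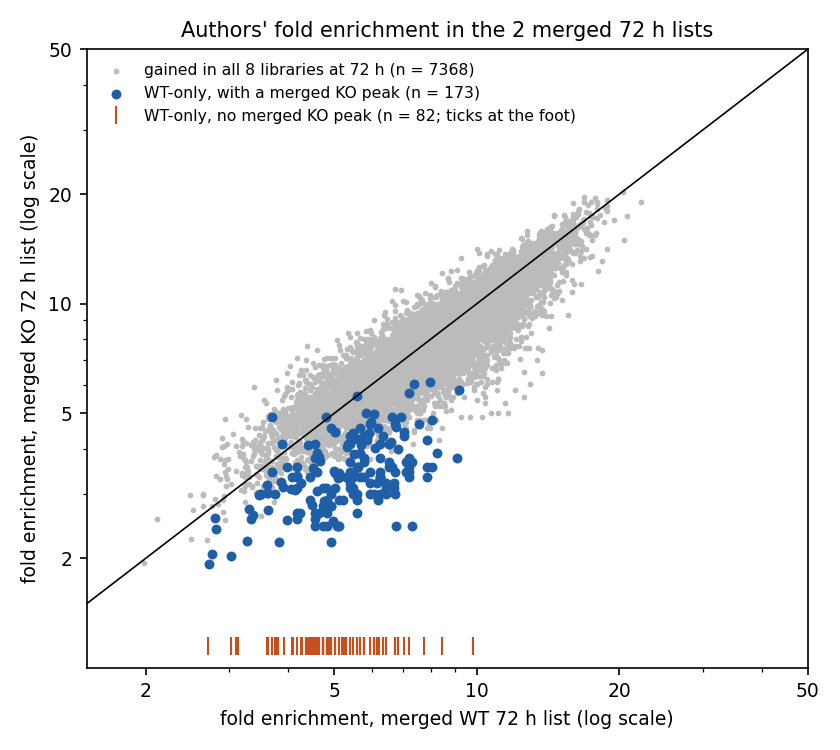
Authors' fold enrichment in the merged WT (x) and KO (y) lists at 72 h, both on log scales, for WT-only regions with summits in both lists (173, filled), WT-only regions with no merged KO peak (ticks at the foot, 82 with a WT summit inside) and regions gained in all 8 libraries (grey, 7368). The line marks equal values: 169 of the 173 lie below it, while the grey regions lie on both sides.

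Regions at which KO was not the lower by merged fold were 4, and they were singled out after their values were seen. In a region 8848 bp from Serpinb11, a serpin gene, WT fold was 3.69 and KO fold 4.89, with merged pileups of 38 and 43. The others lay near Sacm1l (4.8 and 4.89), Rps24 (3.88 and 4.11) and Atad2 (5.57 and 5.58). At these 4 regions the merged lists did not show the difference that the per-library calls showed.

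Among regions with a WT summit inside, the highest merged WT −log10 q belonged to a region in Gm960, a predicted gene (mm10, chromosome 19, 4667708 to 4668235, in the gene body). Its pileups were 21, 46, 30 and 27 in the 4 WT libraries (31.0 ± 10.7, SD, n = 4). Merged WT fold was 9.81 and no merged KO peak was called. Near Tpt1, which encodes translationally controlled tumour protein, a region 25652 bp from the gene (chromosome 14, 75818919 to 75819604) had WT pileups of 19, 30, 28 and 16, a WT fold of 8.42 and no merged KO peak. Both regions were well above the lowest called pileup in every WT library, and neither gave a peak when all KO fragments were combined.

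A region 43141 bp from Slc38a11, a member of the amino acid transporter family of sodium-coupled neutral transporters, also had no merged KO peak (chromosome 2, 65407167 to 65407573; WT pileups 24, 27, 19 and 21; WT fold 7.75). A region in the body of Itga2, the integrin alpha 2 chain of a collagen receptor, gave WT pileups of 44, 78, 49 and 58 but a WT fold of 3.13 (chromosome 13, 114880671 to 114881070). It was among the highest WT-only regions by pileup, over a high local background, and had no merged KO peak. The remaining 2 of the 6 highest without a KO peak lay 15912 bp from 2610301B20Rik and 6244 bp from the vomeronasal receptor gene Vmn1r33, with WT folds of 6.42 and 7.19.

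Other high WT regions kept a weaker merged KO peak. In Csnk1g1, a casein kinase gene, the WT pileups were 18, 26, 35 and 31, with merged folds of 9.18 in WT and 5.78 in KO (chromosome 9, 65929976 to 65930386). Near Tnfsf18, which encodes the ligand of the co-stimulatory receptor GITR, the pileups were 25, 27, 28 and 21 and the folds 9.09 and 3.78 (chromosome 1, 161478322 to 161478558, 16099 bp from the gene). Here the 4 WT libraries were close together, and the KO fold was less than 0.5 of the WT fold. That held at 24 of the 173 regions with both merged summits inside. Over all WT gains the lower quartile of this ratio was 0.804, and low KO values at WT-only regions were fixed by the choice. In Vti1a, a SNARE protein gene, the folds were 8.23 and 3.89, in the dynein gene Dnah12 8.04 and 4.78, and near Amer2, which encodes a membrane regulator of the Wnt pathway, 8.04 and 3.56.

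Rab22a, a small GTPase of endosomes, held the region with the highest library pileup (chromosome 2, 173662651 to 173662892). Its 4 values were 54, 104, 72 and 41 (67.8 ± 27.3, SD, n = 4). They differed by more than those of any region described above, and merged fold was 3.33 in WT and 2.56 in KO. By the −log10 q of an overlapping merged KO peak the highest regions were those in Mbnl1, near Atad2, in Casz1 and near Setbp1, and at Mbnl1 the summit of that peak lay outside the region. Casz1, a zinc finger transcription factor gene, had folds of 7.95 and 6.11, and Setbp1 7.38 and 6.0. The KO folds of both lay above the upper quartile of the WT-only regions (4.01). Both regions were named for a high merged KO −log10 q, a choice that favours high KO folds.

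**Figure D4:**
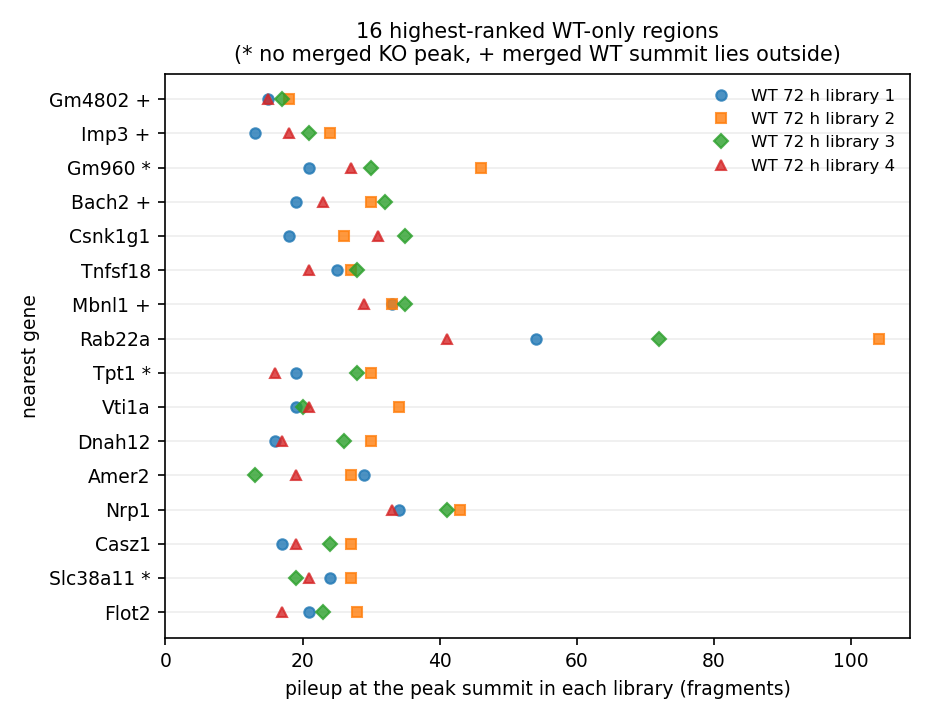
Pileup at the peak summit in each of the 4 WT libraries at 72 h for the 16 WT-only regions with the highest merged WT −log10 q, named by nearest gene; an asterisk marks no merged KO peak and a plus sign a merged WT summit outside the region. Most values lie between 13 and 46, and Rab22a reaches 104.

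At 6 of the 263 regions the merged WT peak had its summit outside the region, in a separate neighbouring region, so that its score describes the neighbour. This held for 4 of the 12 regions with the highest merged WT −log10 q: those at Gm4802, Imp3, Bach2 and Mbnl1. At Gm4802 the merged peak had a pileup of 302, but the region itself gave 15, 18, 17 and 15 in the libraries. Its neighbour, 218 bp away, was called in all 8 activated libraries. The regions at Imp3, Bach2 and Mbnl1 lay 112, 184 and 121 bp from regions called in all 15 libraries. Imp3 encodes a component of the U3 small nucleolar ribonucleoprotein, and Mbnl1 a regulator of alternative splicing. These regions were flanks of peaks present in both genotypes, not isolated sites. The region at Mbnl1 was also the 1 WT-only region that the authors' final KO list for 72 h overlapped, whereas all 263 were overlapped by the final WT list.

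Bach2, which encodes a transcriptional repressor that holds back effector differentiation, was nearest to 3 WT-only regions, more than any other gene. The numbers of all regions and of WT gains at Bach2 were not set beside this count, so it is not shown to exceed the gene's share. All lay in the gene body within 31798 bp on chromosome 4. The region from 32303321 to 32303986 had WT pileups of 16, 15, 18 and 14, with merged folds of 3.62 in WT and 3.02 in KO. The region from 32315050 to 32315544 had 11, 19, 17 and 16, with folds of 4.60 and 3.45. The region from 32334737 to 32335118, beside the constant neighbour, had 19, 30, 32 and 23. All 3 had a merged KO peak, and the first and second had low WT scores (251st and 200th of 263 by merged WT −log10 q).

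Another 7 genes were nearest to 2 regions each, so the 263 regions had 254 different nearest genes. Those with the highest scores were Atp6v1c1, which encodes a subunit of the vacuolar proton pump, Lpp, a LIM domain protein gene, Plcb4, a phospholipase C gene, Phex, an endopeptidase gene, and Gm10461. At Plcb4 both regions had a merged KO peak (folds 6.15 and 3.22, and 4.16 and 3.36 in WT and KO). At Atp6v1c1, Lpp, Phex and Gm10461 1 of the 2 had one. Neighbouring WT-only regions within 100 kb of each other formed 8 runs holding 17 regions, and the longest was that of 3 at Bach2. Runs and shared nearest genes were not counted among all WT gains, so grouping beyond that of other regions is not shown. The pairs at Gm10461 and Atp6v1c1 spanned 17254 and 41717 bp.

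Of 314 genes on 20 lists of T cell, interferon, metabolic and marker genes, 5 were nearest to a WT-only region within 100 kb. The 7 regions concerned were 2.66% of the WT-only regions, against 2.74% of all WT gains and 3.18% of all regions, so the share was near the background. Bach2 counted for 2 lists, naive and quiescence genes and AP-1 and BATF genes. Nrp1, a co-receptor for semaphorins found on regulatory T cells, held a region with WT pileups of 34, 43, 41 and 33 and merged folds of 4.60 and 3.89 (chromosome 8, 128483401 to 128483796). Sesn1 encodes a stress-induced leucine sensor that restrains mTORC1, and its region gave 9, 13, 17 and 10, a WT fold of 4.26 and no merged KO peak (chromosome 10, 41869924 to 41870290). The adhesion list held Itga2, given above, and Itga4, the alpha 4 chain of the integrin VLA-4, with 14, 16, 23 and 11 at 35881 bp from the gene and folds of 5.77 and 3.67.

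No WT-only region was nearest to a gene of the other 15 lists, among them those for the Th1, Th2 and Th17 programmes, T cell identity, the response to the T cell receptor, interferon-stimulated genes, the IRF family, cytokines linked to IRF5, amino acid metabolism, glycolysis and the cell cycle. These lists held 6 to 31 WT gains each, and 2.28% of all WT gains were WT-only. At that share a count of 0 in so small a list says little about its genes. The interferon-stimulated list had 8 WT gains, of which 3 were also called in all 4 KO libraries, and the T cell receptor activation list had 31 and 20. Over all WT gains the share also called in all 4 KO libraries was 64.3%. Differences between lists, on few gains each, were not tested. The number of listed genes is given here with the number of regions found under each setting. It rose to 11, 8 and 16 without WT library 1, 3 or 4 (454, 422 and 699 regions). Without KO library 1 or 3 it rose to 13 and 12 (470 and 493 regions). It was 10 with a peak coverage of at least 0.5 (429 regions) and 12 without the condition on 0 h (387 regions). With equal peak numbers in the 8 activated libraries it was 1 (128 regions).

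Most WT-only regions lay away from the ends of genes. Inside the body of a protein-coding gene lay 158 (60.08%), against 55.99% of all WT gains and 60.05% of all regions. With equal peak numbers in all 15 libraries the share was 40.98% of the 61 regions found. Those regions overlapped 0 of the WT-only regions, and WT gains were not counted under that setting. Within 1 kb of a gene boundary lay 11 (4.18%), against 9.0% of WT gains and 15.4% of all regions. That share was 8.67% of the regions found with a −log10 q of at least 5. It was 8.39% of those found with a peak coverage of at least 0.5. WT gains were not counted under either setting, so these shares have no like background. Of the WT-only regions, 17.5% lay within 5 kb. The share near a boundary rose along the gradient, from 6.38% of regions called in 1 KO library to 10.1% of those called in all 4. The median distance to the nearest boundary was 21680 bp, close to the 21362 bp of all WT gains. A further 22 regions (8.37%) lay over 100 kb from any protein-coding gene, near the 9.72% of WT gains and 8.04% of all regions. A non-coding gene or pseudogene was overlapped by 24 regions, a count with no background share beside it.

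The median width of the WT-only regions was 422 bp (quartiles 352 and 543, range 216 to 1038), and it was 475, 520, 582 and 715 bp for gains called in 1, 2, 3 and 4 KO libraries. All WT gains together had a median of 645 bp and all regions 500 bp. The 61 regions found with equal peak numbers in all 15 libraries had a median of 634 bp. They overlapped 0 of the WT-only regions, and the width of WT gains under that setting was not measured. Their width therefore does not check that of the WT-only regions. The widest WT-only regions lay in Rap1gds1 (1038 bp), near Tent5a (964 bp) and in Micos10 (951 bp). Among the lowest merged WT −log10 q values were those near Serpinb11 (10.1) and near Rps13, a ribosomal protein gene (8.63).

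**Figure D5:**
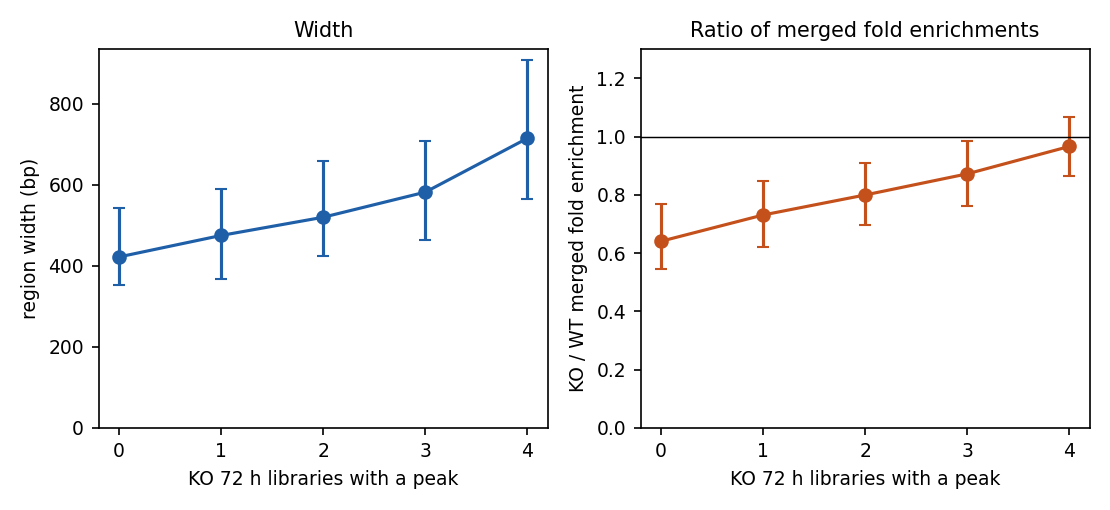
Region width (left) and KO to WT ratio of merged fold enrichment (right) for regions gained in all 4 WT libraries, by the number of activated KO libraries with a peak. Points are medians and bars run from the lower to the upper quartile: both medians climb from 0 libraries (422 bp, ratio 0.641) to 4 libraries (715 bp, ratio 0.966), and the line marks a ratio of 1.

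Of 252 WT-only regions on chromosomes with promoter sequences at hand, 1 (0.397%) overlapped a promoter window (250 bases before to 50 after a transcription start), against 5.28% of WT gains and 11.2% of all regions. It was the promoter of Pmch, which encodes the precursor of melanin-concentrating hormone, a neuropeptide of the hypothalamus. The region (chromosome 10, 88090821 to 88091162) covered all 300 bases of the window, and the merged WT summit lay 25 bases upstream of the start. Its WT pileups were 12, 21, 22 and 15, the merged WT fold was 6.34, and no merged KO peak was called. The window is shown because it is the single promoter that a WT-only region overlapped (RefSeq, GRCm38.p6, the assembly behind mm10, chr10:88090822-88091121, plus strand, 5′ to 3′), with matches to 2 of 7 searched motifs in capitals.
Pmch promoter: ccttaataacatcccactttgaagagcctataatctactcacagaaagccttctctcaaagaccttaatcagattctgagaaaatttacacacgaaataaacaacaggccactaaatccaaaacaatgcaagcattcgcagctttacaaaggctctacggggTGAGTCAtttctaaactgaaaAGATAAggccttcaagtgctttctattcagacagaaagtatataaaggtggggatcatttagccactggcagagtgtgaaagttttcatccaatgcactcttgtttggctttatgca
Of the motifs searched on both strands, it held 1 AP-1 motif (TGANTCA, in 7.81% of all 32851 promoter windows) and 1 GATA motif (AGATAA, 11.2%). It held no interferon response element (GAAANNGAA, 8.56%), NFAT and ETS core (TTTCC, 61.3%), RUNX (TGTGGT, 16.8%), T-box (TCACACC, 3.98%) or NF-kB motif (GGANTTTCC, 1.25%). A match is a description of letters and not a binding site. The sequences of the other regions were not analysed here.

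The other regions with a high merged WT −log10 q within 1 kb of a gene boundary were those at Imp3, Flot2, Cep295nl, Atad2 and Oaz3. The region at the boundary of Flot2, which encodes a membrane scaffold protein of lipid rafts, had WT pileups of 21, 28, 23 and 17 and merged folds of 7.86 and 4.22 (chromosome 11, 78060307 to 78060894). At Cep295nl the folds were 4.60 and 3.05, and at Oaz3, an antizyme gene, 5.10 and 3.32. The region near Atad2, a chromatin-bound ATPase gene, had pileups of 25, 25, 24 and 16.

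At 0 h, 12 regions were overlapped by a merged WT peak, 9 with its summit inside, and 0 by a merged KO peak. The shares were 4.56% and 0%, against 7.18% and 2.36% of all WT gains and 52.0% and 43.6% of all regions. The merged 0 h pools held 97.6 M fragments for WT and 73.7 M for KO. The summits outside belonged to neighbours at Bach2, Rps13 and Ilrun, and these 3 were also the regions that the authors' final WT list for 0 h overlapped. Within 10 kb, 202 regions (76.8%) had another merged region. The 486 neighbours were called in 53.1% to 61.1% of cases in the 4 WT libraries at 72 h and in 47.1% to 49.6% in the 4 KO libraries. Over all regions the shares were 51.5% to 59.4% and 47.2% to 52.6%, so the surroundings of the WT-only regions were called at about the rate of the rest in each genotype.

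Around the targeted gene, 2 WT-only regions lay within 5 Mb of Irf5 on chromosome 6, of 43 WT gains and 410 regions in that interval, which held 0 mirror regions. They were 0.760% of the WT-only regions, against 0.372% of WT gains and 0.368% of all regions, a difference that was not tested. They lay in Snd1, which encodes a nuclease of RNA silencing complexes (28623691 to 28624021; WT pileups 12, 21, 11 and 11), and in Chchd3, a gene of the mitochondrial inner membrane (33008107 to 33008528; 15, 30, 19 and 12). Neither had a merged KO peak, and their WT folds were 4.40 and 6.81. No WT-only region had Irf5 or Dock2, a regulator of lymphocyte migration, as its nearest gene.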

How the data were processed

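Peak lists of 15 ATAC-seq libraries, 4 merged lists and 4 final lists were used. The submitters' processing notes name the build mm10 and the tools Trim Galore 0.5.0, Bowtie2 2.2.9 and HOMER 4.10.4. Per the file headers, the authors called peaks with MACS2 2.1.1.20160309 on fragments, without duplicates, at a q value of 0.05. The deposited pileup is the fragment coverage signal at a summit. The deposited fold enrichment is the ratio to local background, and the deposited −log10 q values are the authors' scores. Scores describe and rank peaks within a list, and merged WT and KO values stand side by side with their depths. The sources used here do not say how the final lists were made.

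Library peaks were merged where they shared 1 bp. Merged-list values were taken from the strongest peak with its summit inside the region. Genes were 21896 protein-coding RefSeq genes, without strand or exons. Differences at 72 h in fragments, peaks, duplicates and peak width were tested by two-sided exact permutation (70 arrangements), adjusted by Benjamini-Hochberg. Each p-value is the share of arrangements with an absolute difference in means at least as large as that observed. The spread between libraries may be technical. The region rule was tested on simulated lists. Python 3.11.15, pandas 2.3.3 and scipy 1.17.1 were used.

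Regions named were the 12 highest by merged WT −log10 q, the 6 highest without and the 4 highest with a merged KO peak, those nearest to listed genes, genes with several regions (up to 6), the 3 widest, the 3 lowest, those near Irf5 or Dock2, 6 near gene boundaries and the 3 longest runs. A region that this rule named is not reported here. The region rule and lists were chosen with earlier results of these data known. Alternatives were a −log10 q of at least 5, equal peak numbers, coverage of at least 0.5, final-list regions, autosomes, 72 h alone, a 5 kb boundary distance, a 20 kb gene distance, the replicate block and leaving out each library. The summit condition on merged peaks was added after the data were seen.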

Additional observations from a re-analysis of the deposited data

Results flagged for a closer look

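Of 61 sets of 4 library values examined, 6 held a library far from the other 3, and chance flags about 1 in 20 such sets. WT library 1 at 0 h had the fewest peaks of its group (39807), KO library 1 at 72 h had the fewest of its group (55519), and WT library 4 at 72 h had the highest share of duplicate fragments (0.17). Among the named WT-only regions, the pileup in Snd1 was 21 in WT library 2 against 11 to 12 in the others. In Vti1a it was 34 in WT library 2 against 19 to 21. Near Atad2 it was 16 in WT library 4 against 24 to 25.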

How the results depend on the processing

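The WT-only count of 263 was 61 with equal peak numbers in all 15 libraries, 128 with equal numbers at 72 h and 429 with a coverage of at least 0.5, and ranged from 264 to 699 when 1 library was left out. It stayed within 1.5 times of 263 with a −log10 q of at least 5 (300, though only 70 of the 263 were overlapped by them), with final-list regions, on autosomes and without the 0 h condition. The mirror count of 15 was 9 with the stricter −log10 q, 35 and 68 with equal peak numbers in 15 or 8 libraries and 25 without the 0 h condition, and ranged from 15 to 84 when 1 library was left out. The WT-only count was the higher under each of these settings. The share with a merged KO peak (68.4%) was 93.7%, 100%, 83.6% and 90.4% under the stricter −log10 q, equal numbers in 15 or 8 libraries and the coverage minimum, 49.05% when the merged peak had to cover at least 0.5 of the region, 67.3% with its summit inside, and 65.4% to 82.2% when 1 library was left out. The mirror share (66.7%) was 100%, 94.1% and 94.7% with equal numbers in 15 or 8 libraries and the coverage minimum, and 63.1% to 89.1% when 1 library was left out. The causes of these shifts were not tested. The share of duplicate fragments (difference −0.0025) reversed to 0.0025 without WT library 4 and 0.00167 without KO library 1, and ranged from −0.005 to 0.0025. With the replicate number as a block, the paired exact permutation test gave p = 0.25 for peaks (difference −6270) and p = 0.125 for fragments (−3.004 M), where 0.125 is the smallest p it can give. No call changed. Same-numbered libraries did not deviate together: 0 of 4 WT libraries correlated best with their own number. The part of depth in these low calls was not tested.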

Other observations

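The 15 regions of the mirror rule had a median merged KO fold enrichment of 4.40 and a median width of 368 bp, where the 263 WT-only regions had a median merged WT fold of 5.21 and a width of 422 bp. The highest by merged KO −log10 q lay 44596 bp from Sptssa, a subunit gene of serine palmitoyltransferase, with a KO fold of 6.85 and no merged WT peak. The next lay 5270 bp from Nars2, a mitochondrial asparaginyl-tRNA synthetase gene (KO fold 5.59, no merged WT peak). A region at Tnfrsf12a, which encodes the TWEAK receptor, lay 148 bp from a gene boundary and had a KO fold of 2.67 and no merged WT peak. None of the 15 had a nearest gene on the 20 lists within 100 kb. Over all regions the share with such a gene was 3.18%. At that share, the lack of a listed gene among only 15 regions says little about the mirror regions.

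By chromosome, WT-only regions made up 1.10% of the WT gains on chromosome 1 and 4.05% of those on chromosome 19, against 2.28% overall. Chromosome 2 held the most, 31 (11.8% of the WT-only regions, against 9.14% of all WT gains), chromosome X held 5 and chromosome Y 0. The differences between chromosomes were not tested.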
